A study of Mus musculus with 14 samples.

Results

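The nucleotide and polyamine synthesis genes are 35 listed genes whose products make spermidine and spermine, purine and pyrimidine nucleotides, and the deoxynucleotides for DNA. Their members on the arrays were every probe set, a group of short probes for 1 transcript, that the platform annotation assigns to one of the listed genes alone. This gave 73 probe sets for 32 genes, out of 45037 probe sets tested and 18193 genes that have a probe set of their own. Sms, Amd1 and Impdh2 have no probe set that names them alone. The rule uses no measured value, but the genes were listed with earlier results of these data known. Per gene, 11 genes had 1 probe set, 5 had 2, 12 had 3 and 4 had 4.

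RNA was measured in erythroid progenitor cells cultured from bone marrow of wild-type C57Bl/6 female mice aged 8 to 12 weeks, on Affymetrix mouse arrays. Stage E1 cells, described as CFUe-like, were taken at day 3 by removing lineage-positive cells and then selecting for Kit and CD71 (the transferrin receptor). Stage E2 cells, described as proerythroblasts, were taken at day 3.5 by removing lineage-positive and Kit-positive cells and then selecting for CD71. The days are those of the labels, from which the methods differ for stage E1. Both were held for 5.5 h without haematopoietic cytokines and then kept for 90 min with erythropoietin (EPO) at 4 U/mL or with none. The 4 groups are E1 no EPO and E1 EPO, with 4 arrays each, and E2 no EPO and E2 EPO, with 3 arrays each, all labelled as biological replicates. How many mice a replicate pooled is not given in the sources used here.

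Polyamines are small positively charged molecules that bind RNA and DNA. Ornithine decarboxylase (Odc1) makes putrescine, spermidine synthase (Srm) turns it into spermidine, and antizymes send ornithine decarboxylase to the proteasome. Purine rings are built on phosphoribosyl pyrophosphate with one-carbon units carried by folate, pyrimidine rings are built before the ribose is added, and ribonucleotide reductase supplies the deoxynucleotides. Erythroid progenitors divide fast and build much ribosomal RNA before they arrest, so these pathways are in heavy use in this lineage.

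All values are GC-RMA values on a log2 scale, from which the authors subtracted 1 constant per probe set. A value of 0 is therefore no absence, levels of different genes cannot be compared, and differences between arrays can be read. The base of 2 is inferred. Differences were tested with limma (two-sided moderated test), with Benjamini-Hochberg adjustment over the 45037 probe sets, and a probe set was called at an adjusted p under 0.05. In RNA of a whole cell pool, a smaller share of cells of one type and less RNA per cell cannot be told apart.

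Arrays of a group correlated at r = 0.768 to 0.912 in stage E1 and 0.719 to 0.823 in stage E2, taken across probe sets, which do not vary independently. The SD of all values on an array was 0.633 to 0.736 in stage E1 and 0.259 to 0.295 in stage E2. After the subtraction this SD measures how far an array lies from the constants, and a spread of expression cannot be read from it. The 5 known EPO response genes checked, among them Cish and Pim1, were all called in both stages. Of 40 measured marker genes for erythroid, B, T, myeloid, megakaryocyte and mast cells, none was called with EPO in either stage by limma.

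With EPO in stage E1, Srm was the single member called, in the fit without pairing. With arrays paired by replicate number, as a block, 0 were called. One member probe set of 73 was called higher, where 0.804% of all probe sets were, and 0 were called lower, where 0.36% of all were. At an unadjusted p under 0.05, 11 of the 73 were higher and 2 lower, beside 5.02% and 3.82% of all probe sets. Values were higher with EPO at 49 of 73 probe sets, with a median difference of 0.14 on the log2 scale against -0.0047 over all probe sets tested. In 10 of the 73 every EPO array lay above every array without EPO, and in 0 below, where 3.28% and 2.3% of all probe sets did so. For 55 of the 73 the 95% confidence interval lay within 1 log2 unit of 0 on either side, as it did for 38400 of all 45037 probe sets.

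**Figure D1:**
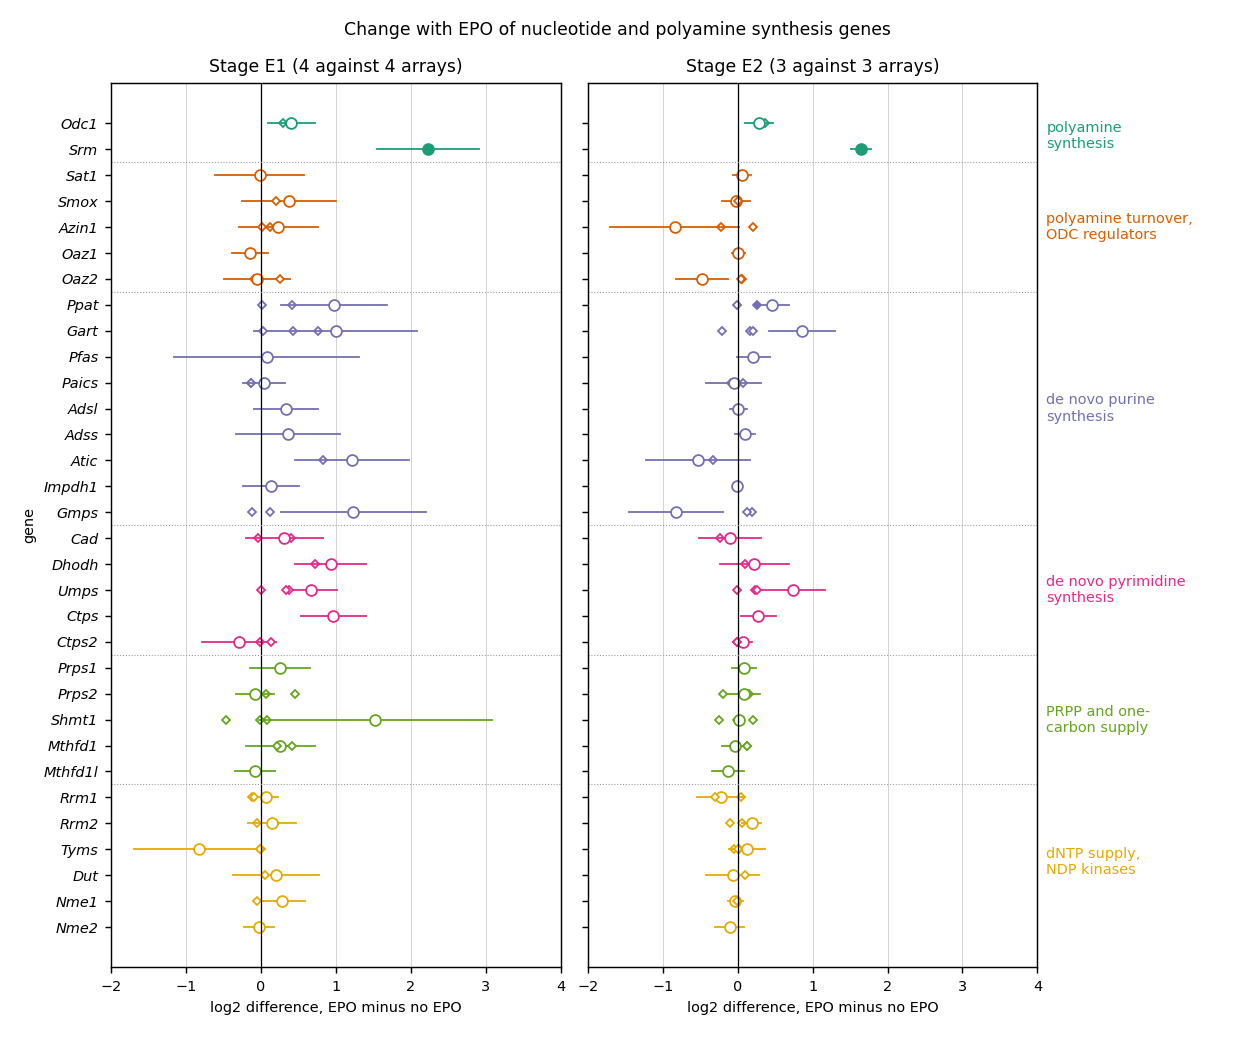
Log2 difference between arrays with and without EPO (x axis) for the 32 genes (y axis), coloured by role, in stage E1 (left) and stage E2 (right). Circles with 95% confidence intervals are the probe set of each gene with the largest SD over the 14 arrays, diamonds its other probe sets, and filled symbols were called by limma. Srm stands apart in both stages, at 2.23 and 1.65.

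In stage E2, Srm and 1 probe set of Ppat were called higher, 2 of 73, where 2.54% of all probe sets were, and 0 were called lower, where 2.08% of all were. At an unadjusted p under 0.05, 14 were higher and 3 lower, beside 7.81% and 8.66% of all. The median difference over the 73 was 0.017, against -0.0049 over all probe sets. Every EPO array lay above every array without EPO in 17 probe sets and below in 6, beside 9.42% and 13.7% of all probe sets. A confidence interval within 1 log2 unit of 0 was found for 67 of the 73, and for 42236 of all 45037 probe sets.

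Srm, which adds an aminopropyl group to putrescine to give spermidine, was measured by 1 probe set (1421260_a_at). The gene lies at chr4:148591513-148594619 (GRCm38.p6). Its values in E1 no EPO were -0.26, 0.26, 0.85 and 0.92, and in E1 EPO 2.74, 2.30, 2.82 and 2.82. In E2 no EPO they were -1.07, -1.12 and -1.01, and in E2 EPO 0.56, 0.68 and 0.52. In each stage all EPO arrays lay above all arrays without EPO, by a wide margin, and the lowest values of all were those of E2 no EPO.

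Srm rose with EPO by 2.23 ± 0.285 (SE) on the log2 scale in stage E1, a 4.69-fold rise (limma adjusted p = 0.0205, n = 4 and 4). In stage E2 it rose by 1.65 ± 0.052 (SE), or 3.14-fold (limma adjusted p = 0.00124, n = 3 and 3). In the fit blocked on replicate number, limma's adjusted p in stage E1 was 0.0988, so the call was lost. The E1 call was also lost without E1 no EPO replicate 2 (0.0668) and without E1 EPO replicate 1 (0.0540), 3 (0.0830) or 4 (0.0716), with differences of 1.99 to 2.39 over all 8 arrays left out in turn. Quantile normalization gave 1.65 in stage E1 and 3.41 in stage E2, both called.

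**Figure D2:**
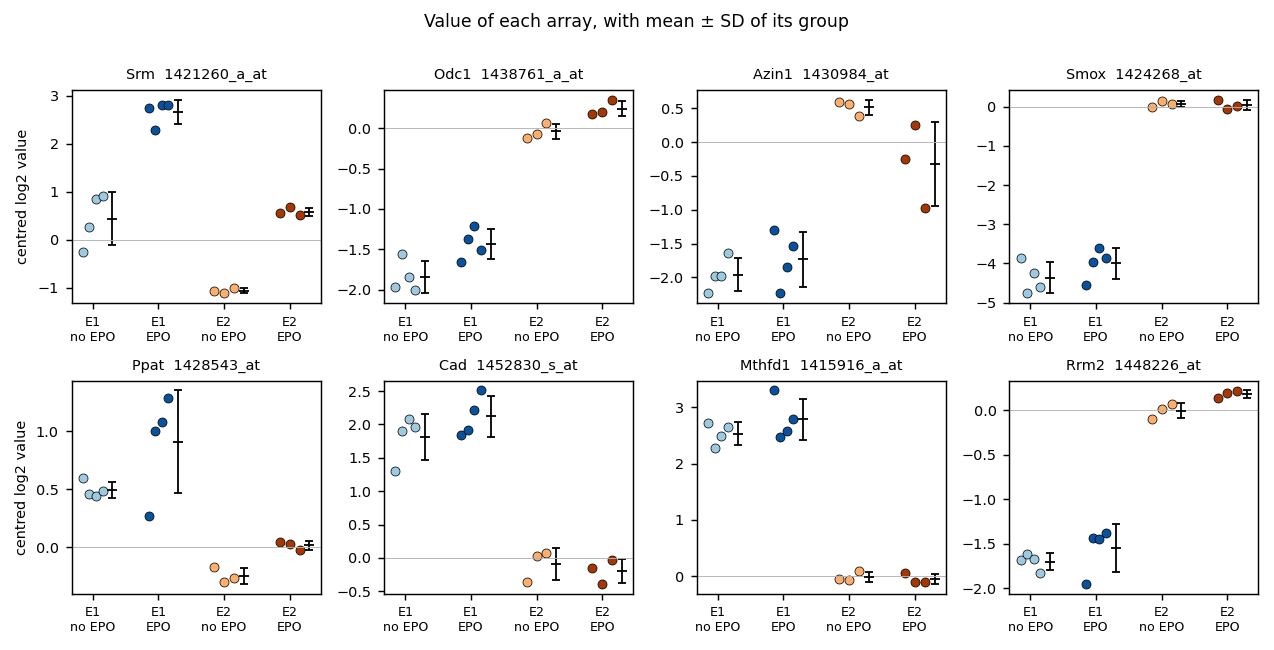
Centred log2 value of each array (points) for 8 probe sets, with the group mean ± SD beside them; each panel has its own y axis, and 0 is the constant that was subtracted. Srm lies higher with EPO in both stages, while Odc1, Azin1, Smox and Rrm2 lie higher and Cad and Mthfd1 lower in stage E2.

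Odc1, the entry enzyme of polyamine synthesis, did not pass the test with EPO in either stage. The probe set with the largest spread (1438761_a_at) read -1.96, -1.56, -1.85 and -2.01 in E1 no EPO and -1.65, -1.37, -1.21 and -1.51 in E1 EPO. In stage E2 it read -0.11, -0.067 and 0.067 without EPO and 0.18, 0.21 and 0.35 with EPO. The EPO arrays overlapped the others in stage E1 and lay above them in stage E2. The differences were 0.41 ± 0.131 (SE) (limma adjusted p = 0.332) and 0.28 ± 0.071 (SE) (0.124). The other Odc1 probe sets differed by 0.40 and 0.30 in stage E1 and by 0.31 and 0.37 in stage E2, and none was called. As the mean of its 3 probe sets, tested over genes, Odc1 was called in stage E2 (0.32, limma adjusted p = 0.0375).

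Among the genes of polyamine turnover and the regulators of ornithine decarboxylase, none of 10 probe sets was called with EPO by limma in either stage. These are Azin1, which binds antizyme and so spares ornithine decarboxylase, the antizymes Oaz1 and Oaz2, spermine oxidase (Smox) and spermidine/spermine acetyltransferase (Sat1). At an unadjusted p under 0.05, 0 of them passed in stage E1, beside 5.02% of all probe sets higher and 3.82% lower. Stage E2 gave 2, Azin1 1450714_at (higher) and Oaz2 1426764_at (lower), beside 7.81% of all probe sets higher and 8.66% lower. The 3 Azin1 probe sets did not point one way in stage E2, with differences of -0.84, -0.23 and 0.20. Oaz2 (1426764_at) differed by -0.48 ± 0.133 (SE) in stage E2 (limma adjusted p = 0.159), with values of 0.35, 0.41 and 0.26 without EPO and -0.053, 0.053 and -0.40 with it. Its other probe sets differed by 0.054 and 0.051. Sat1 and Oaz1 were close to 0 in stage E2, at 0.056 and 0.0078.

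The purine pathway leads from phosphoribosyl pyrophosphate through Ppat, Gart, Pfas, Paics, Adsl and Atic to inosine monophosphate, from which Adss leads towards AMP and Impdh1 and Gmps towards GMP. In stage E1 none of its 19 probe sets was called by limma, 16 had higher values with EPO, and at an unadjusted p under 0.05, 5 were higher and 2 lower, beside 5.02% and 3.82% of all probe sets. Their median difference was 0.33. In stage E2, 1 of 19 was called higher, beside 2.54% of all probe sets, and 11 had higher values, with a median of 0.071.

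Ppat, the amidotransferase of the first committed step, rose slightly with EPO in stage E2 at 1 of its 3 probe sets. Probe set 1428543_at read -0.17, -0.30 and -0.27 in E2 no EPO and 0.048, 0.025 and -0.025 in E2 EPO. It read 0.60, 0.46, 0.45 and 0.48 in E1 no EPO and 0.27, 1.01, 1.08 and 1.29 in E1 EPO. The groups did not overlap in stage E2 and did in stage E1, where 1 EPO array was the lowest of the 8. The rise in stage E2 was 0.26 ± 0.042 (SE), or 1.20-fold (limma adjusted p = 0.0443), and the difference in stage E1 was 0.42 ± 0.211 (SE) (0.737). The call was lost with quantile normalization (0.65, adjusted p = 0.0689), in one fit on all 14 arrays (0.957) and in 5 of 6 fits that left out an array, where the adjusted p lay between 0.0963 and 0.136. It held without E2 no EPO replicate 1 (0.0332).

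A second Ppat probe set (1452831_s_at, where _s_at and _x_at mark probes that may match several transcripts) had no overlap in either stage. Its values were 0.058, 0.011, 0.10 and 0.26 in E1 no EPO, 0.33, 0.84, 1.43 and 1.73 in E1 EPO, -0.30, -0.51 and -0.26 in E2 no EPO and 0.18, -0.011 and 0.12 in E2 EPO. The differences of 0.98 and 0.46 did not pass (limma adjusted p = 0.296 and 0.0684). The third, 1441770_at, had an SD of 0.032 over the 14 arrays and read nearly the same in every group. Probe sets with a flat reading of this kind, with an SD under 0.05, number 5 among the 73, and also belong to Umps, Ctps2 and Tyms.

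Ppat and Paics are transcribed away from each other on chromosome 5, and their annotated spans overlap by 277 bases. The windows printed here run from 250 bases before to 50 after a gene start in RefSeq (GRCm38.p6), with Paics at chr5:76951052-76951351 on the plus strand and Ppat at chr5:76951529-76951828 on the minus strand. The Atic window is chr1:71556906-71557205 on the plus strand. Ppat is shown for the call in stage E2, Paics as its neighbour that was not called, and Atic for its opposite differences in the stages. Capitals mark the letters CACGTG (an E-box) and TTCNNNGAA (the STAT motif), searched on both strands, on which each reads the same.
Paics: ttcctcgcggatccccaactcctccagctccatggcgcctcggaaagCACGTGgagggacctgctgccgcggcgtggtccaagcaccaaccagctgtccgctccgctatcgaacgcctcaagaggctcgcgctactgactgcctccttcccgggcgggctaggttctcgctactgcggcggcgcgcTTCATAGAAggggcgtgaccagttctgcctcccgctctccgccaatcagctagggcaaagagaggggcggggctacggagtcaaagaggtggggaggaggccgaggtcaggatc
Ppat: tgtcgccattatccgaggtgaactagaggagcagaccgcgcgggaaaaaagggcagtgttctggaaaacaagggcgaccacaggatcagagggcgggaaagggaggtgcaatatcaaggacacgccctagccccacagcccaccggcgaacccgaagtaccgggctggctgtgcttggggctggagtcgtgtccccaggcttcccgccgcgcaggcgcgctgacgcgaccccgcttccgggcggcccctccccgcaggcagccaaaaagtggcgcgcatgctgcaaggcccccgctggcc
Atic: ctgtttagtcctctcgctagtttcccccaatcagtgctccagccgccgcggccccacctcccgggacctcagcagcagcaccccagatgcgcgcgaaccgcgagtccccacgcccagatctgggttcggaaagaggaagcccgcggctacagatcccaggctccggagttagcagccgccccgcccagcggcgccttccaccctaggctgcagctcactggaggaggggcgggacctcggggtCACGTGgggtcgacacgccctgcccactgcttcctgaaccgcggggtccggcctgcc

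CACGTG was in the windows of 4 of the 28 member genes that have one (Atic, Nme1, Paics and Tyms), or 5 of 34 windows, beside 7.15% of all 32851 promoter windows. TTCNNNGAA was in those of 2 of 28 (Adsl and Paics), or 2 of 34 windows, beside 8.3% of all windows. The 2 motifs do not share letters. A match is a description of these letters only. Azin1, Dhodh, Pfas and Srm are the 4 measured members with no window in the table.

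The Paics probe sets, for the bifunctional carboxylase and synthetase of the pathway, were near 0 with EPO. They differed by -0.13, -0.13 and 0.041 in stage E1 and by 0.071, -0.091 and -0.054 in stage E2, and none was called.

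Atic, which closes the purine ring, had separated groups in stage E1 at both of its probe sets. Probe set 1452811_at read -0.16, 0.097, 0.83 and 1.06 in E1 no EPO and 1.24, 1.51, 1.94 and 1.98 in E1 EPO. Probe set 1428506_at read 0.016, 0.50, 1.04 and 1.23 in E1 no EPO and 1.42, 1.53, 1.54 and 1.61 in E1 EPO. All EPO arrays lay above the others, whose spread was wide. The differences of 1.21 ± 0.319 (SE) and 0.83 ± 0.261 (SE) did not pass (limma adjusted p = 0.204 and 0.311), although the first was called in one fit on all 14 arrays (0.0484).

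In stage E2 the Atic values pointed the other way. At 1428506_at they were -0.015, 0.32 and 0.015 without EPO and -0.26, -0.27 and -0.14 with EPO, without overlap. At 1452811_at they were 0.079, 0.63 and -0.058 without EPO and -0.38, 0.058 and -0.63 with EPO, with overlap. The differences were -0.33 (limma adjusted p = 0.21) and -0.53 (0.449).

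Gmps, the GMP synthetase, gave a like picture at 1 of 3 probe sets. Probe set 1455057_at read 0.10, -0.85, 0.11 and 0.86 in E1 no EPO and 0.89, 2.03, 1.12 and 1.11 in E1 EPO. In stage E2 it read 0.66, 0.57 and 0.044 without EPO and -0.62, -0.53 and -0.044 with EPO. The groups were separated in both stages, EPO above in stage E1 and below in stage E2, by 1.23 ± 0.406 (SE) and -0.82 ± 0.240 (SE), neither of which passed (limma adjusted p = 0.352 and 0.175). The other Gmps probe sets differed by 0.13 and -0.12 in stage E1 and by 0.19 and 0.13 in stage E2, so the probe sets disagree in direction in stage E2.

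**Figure D3:**
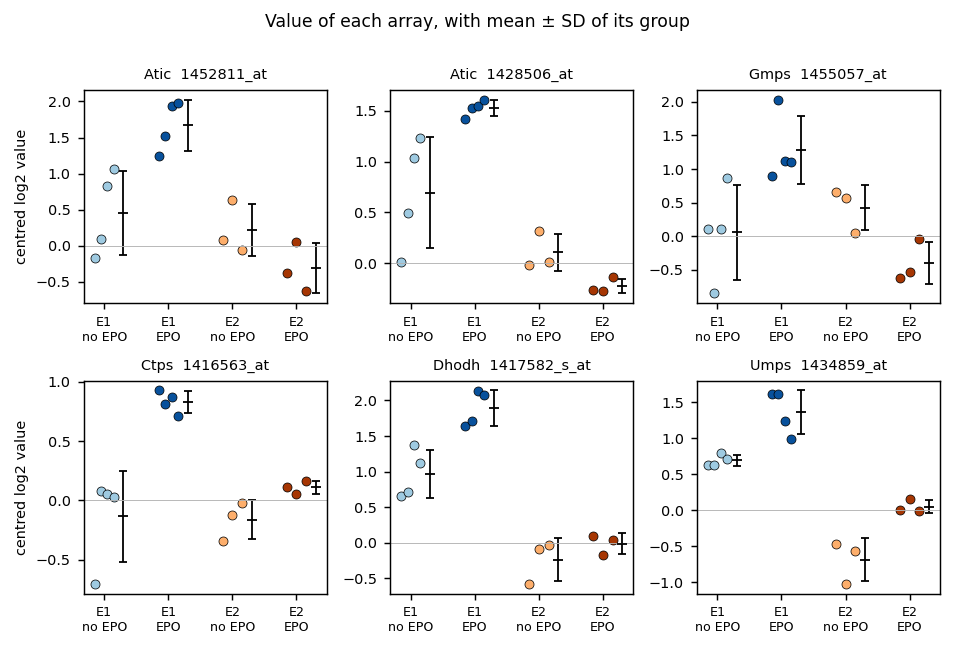
Centred log2 value of each array (points) in the 4 groups, with mean ± SD, for 6 purine and pyrimidine probe sets; each panel has its own y axis. EPO arrays lie above the others in stage E1 in all 6 panels, and in stage E2 below them at Gmps and at Atic 1428506_at and above them at Ctps and Umps.

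The stage by EPO interaction, the E2 change minus the E1 change in one fit of the 14 arrays, was called for 0 of 73 member probe sets by limma, beside 0.18% of all probe sets with a larger and 0.235% with a smaller change in stage E2, and for 0 of the 32 genes, beside 0.198% and 0.291% of all genes. At an unadjusted p under 0.05, 1 of the 73 had a larger and 7 a smaller change in stage E2, beside 3.24% and 3.95% of all. The values were -1.75 ± 0.452 (SE) and -1.16 ± 0.329 (SE) for Atic (limma adjusted p = 0.197 and 0.259) and -2.05 ± 0.535 (SE) for Gmps 1455057_at (0.202). In the fit blocked on replicate number, Atic 1452811_at was called (-1.75, limma adjusted p = 0.0307). That block also pairs the arrays of stage E2 by number, which did not deviate together (r = -0.0609 to -0.0155). With array weights both Atic probe sets were called (-1.68 and -0.94, limma adjusted p = 0.0476 and 0.0481), and after quantile normalization Gmps 1455057_at was (-2.44, 0.0356). Srm differed by -0.58 ± 0.348 (SE) (0.944), with a 95% confidence interval of -1.35 to 0.19. After quantile normalization Srm differed by 1.76 (limma adjusted p = 0.0111), the opposite direction. That setting gives all arrays the same distribution, while the arrays of stage E1 lay farther from the subtracted constants than those of stage E2. It thereby rescales the changes of one stage against the other, so this turn of direction cannot decide the order. Without it the interval of Srm holds 0, so no order of its EPO changes in the stages can be read.

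The remaining purine genes were not called with EPO. Gart, a trifunctional enzyme, had values of -0.13, 1.58, 1.003 and 1.96 in E1 no EPO and 2.17, 2.16, 2.44 and 1.63 in E1 EPO at 1424436_at. In stage E2 it read -0.32, -0.81 and -0.42 without EPO and 0.13, 0.46 and 0.44 with EPO. The groups overlapped in stage E1 and were separated in stage E2, with differences of 0.997 (limma adjusted p = 0.64) and 0.86 (0.0704). Pfas, Adsl, Adss and Impdh1 differed by 0.074 to 0.36 in stage E1 and by -0.0061 to 0.21 in stage E2.

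The pyrimidine pathway starts with Cad, which joins 3 activities in 1 protein, and goes on through Dhodh and Umps to UMP, and through the CTP synthetases Ctps and Ctps2 to CTP. None of its 13 probe sets was called with EPO by limma, while 4 had separated groups in stage E1 and 4 in stage E2, in each case with EPO above, beside 3.28% and 9.42% of all probe sets. At an unadjusted p under 0.05, 4 were higher in each stage, beside 5.02% and 7.81% of all.

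Ctps was the member nearest to the threshold in stage E1. Its values were -0.71, 0.082, 0.054 and 0.025 in E1 no EPO, 0.93, 0.81, 0.87 and 0.71 in E1 EPO, -0.34, -0.12 and -0.025 in E2 no EPO and 0.11, 0.056 and 0.16 in E2 EPO. The EPO arrays lay above the others in both stages. The differences were 0.97 ± 0.184 (SE), or 1.95-fold (limma adjusted p = 0.0786), and 0.27 ± 0.090 (SE) (0.227). The lowest array, E1 no EPO replicate 1, stood apart from its group. Without it, Ctps was called in stage E1 (0.78, limma adjusted p = 0.0097), and with any of the other 7 left out it was not (up to 0.226). With all arrays kept, limma called it with array weights (0.00285) and among the probe sets with the larger SD (0.0300). It was also called in one fit on all 14 arrays (0.00486), which pools the spread of both stages. Tested over genes it was called too (0.0467). Of 17 alternatives at this probe set, 12 left it not called, among them the replicate block (0.262).

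Umps, the UMP synthase, had 3 probe sets with readings above flat. Probe set 1434859_at read 0.64, 0.64, 0.80 and 0.72 in E1 no EPO and 1.61, 1.61, 1.24 and 0.99 in E1 EPO, then -0.47, -1.02 and -0.56 in E2 no EPO and 0.011, 0.16 and -0.011 in E2 EPO. EPO arrays were the higher ones in both stages, with differences of 0.66 ± 0.149 (SE) (limma adjusted p = 0.131) and 0.74 ± 0.164 (SE) (0.0949). As the mean of its probe sets, tested over genes, Umps was called in both stages, at 0.34 (limma adjusted p = 0.0322) and 0.30 (0.0422).

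Dhodh, the mitochondrial dihydroorotate dehydrogenase, read 0.66, 0.71, 1.37 and 1.12 in E1 no EPO and 1.65, 1.71, 2.14 and 2.07 in E1 EPO at 1417582_s_at. The EPO arrays lay above the others, by 0.93 ± 0.198 (SE) (limma adjusted p = 0.114). Limma called this probe set with array weights (0.0213), among the probe sets with the larger SD (0.0442) and in one fit on all 14 arrays (0.0181). Of 17 alternatives, 13 left it not called. In stage E2 the groups overlapped and the difference was 0.22 (0.672). Cad differed by -0.039 to 0.39 in stage E1 and by -0.24 to -0.080 in stage E2.

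Phosphoribosyl pyrophosphate synthetases (Prps1 and Prps2) and the folate enzymes Shmt1, Mthfd1 and Mthfd1l, 12 probe sets, gave no call with EPO by limma. In either stage 0 of them passed an unadjusted p under 0.05. Of all probe sets, 5.02% were higher and 3.82% lower at that threshold for stage E1, and 7.81% and 8.66% for stage E2. The widest spread was that of Shmt1 (1425179_at), the cytosolic serine hydroxymethyltransferase, which read 0.031, 0.43, 2.13 and 1.81 in E1 no EPO and 1.26, 2.82, 3.26 and 3.18 in E1 EPO. These overlap, and the difference of 1.53 has a 95% confidence interval of -0.02 to 3.08 (limma adjusted p = 0.58). All 6 arrays of stage E2 lay between -0.041 and -0.019 at this probe set. Its other probe sets differed by -0.47, -0.016 and 0.081 in stage E1.

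Deoxynucleotide supply and the nucleoside diphosphate kinases, 15 probe sets, likewise gave no call with EPO by limma. Ribonucleotide reductase is made of the large subunit Rrm1 and the small subunit Rrm2, thymidylate synthase is Tyms, dUTPase is Dut, and Nme1 and Nme2 are the kinases. At an unadjusted p under 0.05, 0 passed in stage E1, beside 5.02% of all probe sets higher and 3.82% lower. Stage E2 gave 1, Rrm2 1448226_at (0.19, limma adjusted p = 0.152), beside 7.81% of all probe sets higher and 8.66% lower. Tyms 1438690_at differed by -0.82 in stage E1 (limma adjusted p = 0.623), with a 95% confidence interval of -1.70 to 0.05.

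Other genes of these pathways gave calls in the supply of folate and serine. Of 24 measured genes for ribose phosphate, folate and serine supply, 3 rose with EPO in stage E1, where 1.13% of all genes did, and 4 in stage E2, where 3.19% did, and 0 fell. They were the mitochondrial folate dehydrogenase Mthfd2, which rose by 1.39 and 0.52 (limma adjusted p = 0.0197 and 0.0143), the folate carrier Slc19a1, by 1.71 and 1.09 (0.0107 and 0.0426), and the mitochondrial folate carrier Slc25a32, by 1.72 and 0.99 (0.0243 and 0.00707). Phosphoserine aminotransferase (Psat1) rose in stage E2, by 0.66 (0.0111). In the fit blocked on replicate number, the adjusted p in stage E1 was 0.0554 for Mthfd2, 0.0516 for Slc19a1 and 0.0681 for Slc25a32.

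Of those calls, Mthfd2 and Slc25a32 in stage E1 were each lost in 6 of 8 fits that left out an array, and in stage E2 Slc19a1 in 5 of 6 and Mthfd2 in 2 of 6. In nucleotide salvage, 5 of 20 measured genes fell in stage E2, where 2.42% of all genes did, and 0 were called in stage E1. Among them were the mitochondrial kinases Cmpk2, which fell by 0.99 (limma adjusted p = 0.0241), and Dguok, which fell by 0.30 (0.00988). In nucleotide breakdown, 2 of 22 measured genes rose and 1 fell in stage E2, where 3.19% and 2.42% of all genes did, and 0 were called in stage E1. In stage E2, Samhd1, which cleaves deoxynucleotides, rose by 1.87 (limma adjusted p = 0.00229) and Cda, the cytidine deaminase, by 0.78 (0.0284). Ampd3, an AMP deaminase, fell there by 0.45 (0.024). None of 18 other genes of polyamine, methionine and hypusine metabolism was called with EPO by limma.

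Cmpk2 and Ampd3 lost the call in 4 of 6 and Cda in 5 of 6 fits that left out an array of stage E2. Of the other salvage genes that fell, Nme4 lost it in 5 of 6 and Uckl1 in 6 of 6, as did Adk, the adenosine kinase. Adk fell by 0.50 (limma adjusted p = 0.0445, and 0.0507 to 0.154 without 1 array), and it falls outside the rule for naming genes and was chosen after its values were seen. Dguok lost it in 1 of 6, and Samhd1, Slc25a32 and Psat1 in 0 of 6.

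Between the stages many more member probe sets were called than with EPO. Without EPO, 19 of 73 probe sets were higher and 21 lower in stage E2 than in stage E1, where 10.1% and 10.8% of all probe sets were. With EPO, 19 were higher and 31 lower, where 10.3% and 12% of all were. As single probe sets per gene, 8 genes were higher and 12 lower of 32 without EPO (13.4% and 13.8% of all genes), and 9 and 19 with EPO (13.2% and 15%). In 21 probe sets every E2 array lay above every E1 array without EPO and in 33 below, beside 13.1% and 38% of all. With EPO these were 19 and 37, beside 12.4% and 47.1%. The counts at an unadjusted p under 0.05 were 19 higher and 26 lower without EPO, beside 13.4% and 21.6%, and 20 and 35 with EPO, beside 13.2% and 21.8%.

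Both stage comparisons called 18 probe sets higher and 21 lower, 1 was called without EPO alone and 11 with EPO alone, and 0 turned direction. The interaction, which tests whether the stage difference depends on EPO, was called for 0 of the 73. Stage cannot be told apart from culture day, from the cell selection or from anything else that was done to one stage's arrays. Myeloid markers moved with stage: 8 of 11 measured, Mpo, Elane and S100a8 among them, were lower in stage E2 in both comparisons, with a median difference of -4.34 without EPO. Their mean per array was 4.67 to 5.08 in E1 no EPO and 4.51 to 4.81 in E1 EPO, and -0.098 to -0.084 in E2 no EPO and -0.13 to -0.098 in E2 EPO.

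Mast cell markers were lower in stage E2 in 3 of 5 and megakaryocyte markers higher in 5 of 5, in both comparisons. Erythroid markers were higher in 6 of 8 without EPO and 5 of 8 with EPO, Tfrc (CD71) and Gata1 among them, and lower in 1, Kit (-3.98 and -3.70), on which the stages were selected. B cell markers were lower in 1 of 5, and of 6 T cell markers 0 were called by limma. The part of these other cells in the stage differences of the members was not tested, and whether their defining markers are absent cannot be read from centred values.

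**Figure D4:**
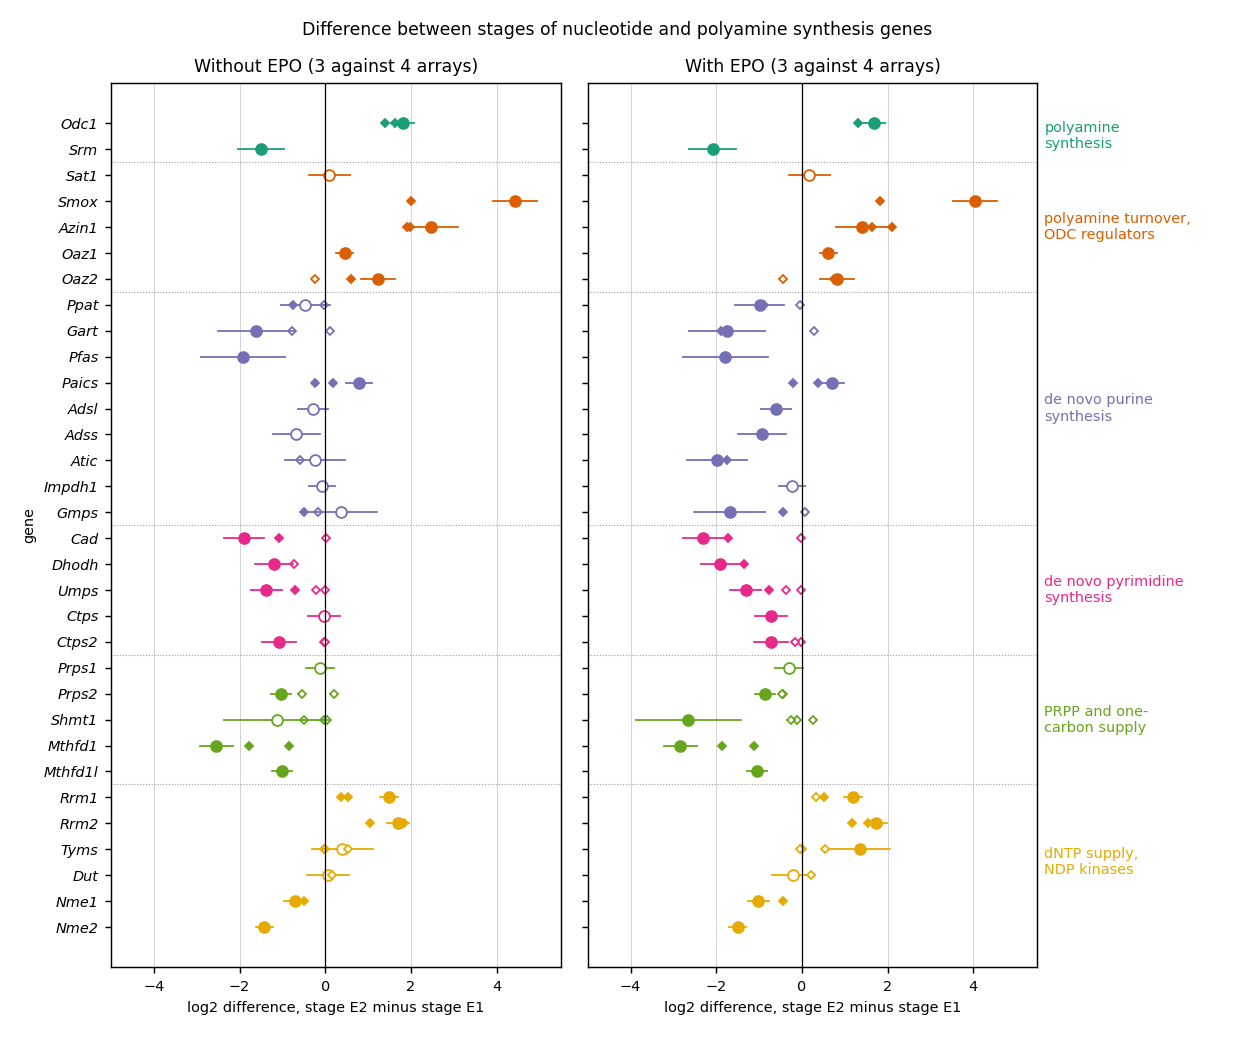
Log2 difference between stage E2 and stage E1 (x axis) for the 32 genes (y axis), without EPO (left) and with EPO (right), symbols as in the plot of EPO changes: circles with 95% confidence intervals for the probe set with the largest SD, diamonds for the others, filled where called by limma. Polyamine turnover and ribonucleotide reductase lie to the right and pyrimidine synthesis and one-carbon supply to the left, with Smox at 4.43 and Mthfd1 at -2.54 without EPO.

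Within polyamine synthesis the stage difference ran both ways. Odc1 was higher in stage E2 at all 3 probe sets, by 1.41 to 1.81 without EPO and 1.32 to 1.69 with EPO, while Srm was lower, with a difference of -1.51 ± 0.246 (SE) without EPO (limma adjusted p = 0.000979) and -2.08 with EPO (8.3e-05). No Odc1 array of stage E1 reached any of stage E2. Quantile normalization moved the Srm differences to -2.85 and -1.09, both still called. In turnover and regulation, 8 of 10 probe sets were higher in stage E2 in each comparison and 0 lower, beside 10.1% of all probe sets higher without EPO and 10.3% with EPO.

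Smox, which oxidises spermine back to spermidine, had the largest difference of the members. At 1424268_at it read -3.87, -4.77, -4.23 and -4.60 in E1 no EPO and -4.54, -3.97, -3.62 and -3.86 in E1 EPO. In stage E2 it read -0.0100, 0.14 and 0.068 without EPO and 0.17, -0.054 and 0.0100 with EPO. The stages were far apart, by 4.43 ± 0.230 (SE) without EPO, or 21.6-fold (limma adjusted p = 2.51e-07), and by 4.04 with EPO. Its second probe set differed by 2.01 and 1.82.

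Azin1 was higher in stage E2 at all 3 probe sets, by 1.98, 2.47 and 1.92 without EPO and by 1.64, 1.40 and 2.11 with EPO. At 1422702_at the arrays of stage E1 lay between -1.95 and -1.59 and those of stage E2 between -0.29 and 0.14. Oaz1 was higher by 0.45 and 0.61 at its only probe set, while a probe set shared with a pseudogene was not called (0.23 and 0.17). Oaz2 was higher by 0.60 and 1.24 without EPO and by 0.75 and 0.82 with EPO at 2 of its 3 probe sets. Sat1, the acetyltransferase, was not called (0.097 and 0.17). After quantile normalization, Azin1 1430984_at (0.45) and Oaz2 1426764_at (0.41) were no longer called with EPO (limma adjusted p = 0.549 and 0.203), and Oaz2 1426763_at (0.38) was not without EPO (0.0991).

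The purine pathway was lower in stage E2 at 6 of 19 probe sets and higher at 2 without EPO, beside 10.8% and 10.1% of all probe sets, and lower at 13 and higher at 2 with EPO, beside 12% and 10.3%. Pfas, which amidates the growing ring, was lower, at -1.92 without EPO (limma adjusted p = 0.00947) and -1.79 with EPO (0.0134), or -3.18 without EPO after quantile normalization. The call without EPO was lost in a fit of only the 2 groups compared (0.0608), and the one with EPO without E2 EPO replicate 2 (0.0512). Gart 1424436_at, at -1.62 without EPO, lost the call in that fit too (0.0942) and without E2 no EPO replicate 2 (0.0648). Gart 1416283_at read 1.30, 1.57, 1.49 and 1.58 in E1 no EPO, 1.59, 1.80, 2.09 and 2.18 in E1 EPO, -0.32, -0.056 and -0.050 in E2 no EPO and 0.068, -0.035 and 0.035 in E2 EPO. No array of one stage reached the other, and the differences were -1.63 ± 0.132 (SE) (5.71e-06) and -1.89 (1.69e-06).

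Both Atic probe sets were called between the stages with EPO, at -1.98 ± 0.319 (SE) and -1.75 ± 0.233 (SE) (limma adjusted p = 0.000808 and 0.0002), and neither without EPO, at -0.24 and -0.59 (0.575 and 0.1). Their interaction did not pass without the block and, for 1452811_at, passed with it, although numbers do not pair the arrays of stage E2. Adsl, Adss and Gmps 1455057_at were also called with EPO alone, at -0.61, -0.93 and -1.69. Adsl lost this call without E2 EPO replicate 3 (0.0609). Adss lost it in the fit of only the 2 groups compared (0.071) and in 4 of 14 fits that left out an array, without E1 EPO replicate 4 and without each E2 EPO replicate, with adjusted p up to 0.0718.

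The Paics probe sets disagreed between stages. Of the 3, 2 were higher in stage E2, at 0.18 and 0.79 without EPO and 0.38 and 0.69 with EPO, and 1423565_at was lower, at -0.25 and -0.21. The call at 0.18 (1423564_a_at) was lost without E2 no EPO replicate 2 (limma adjusted p = 0.0641) or 3 (0.0783) and in 3 other alternatives, with adjusted p up to 0.166. The call of 1423565_at was lost without E2 no EPO replicate 1 (limma adjusted p = 0.0572) and, with EPO, without E1 EPO replicate 2 or 4 and E2 EPO replicate 2 or 3 (0.0635 to 0.101).

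All 5 pyrimidine genes were lower in stage E2 with EPO, beside 15% of all genes, and 4 of 5 without, beside 13.8%. For each gene, here and over all genes, the probe set with the largest SD over the 14 arrays was taken, a choice that favours probe sets with a stage difference. Of the 13 pyrimidine probe sets, 6 were lower without EPO and 8 with EPO, beside 10.8% and 12% of all probe sets, and 0 were higher. Cad 1452830_s_at read 1.31, 1.90, 2.08 and 1.96 in E1 no EPO, 1.84, 1.92, 2.22 and 2.51 in E1 EPO, -0.36, 0.033 and 0.071 in E2 no EPO and -0.15, -0.39 and -0.033 in E2 EPO. The stages did not overlap, with differences of -1.90 ± 0.210 (SE) (limma adjusted p = 5.78e-05) and -2.31 ± 0.210 (SE) (1.17e-05). Umps differed by -1.38 and -1.31, Dhodh by -1.20 and -1.91, and Ctps2 by -1.08 and -0.73, all called, although Ctps2 with EPO was not without E2 EPO replicate 3 (0.0531). Ctps, the other CTP synthetase, was called with EPO alone (-0.72, limma adjusted p = 0.00871, against -0.026, 0.91), and was not called after quantile normalization (-0.39, 0.138).

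One-carbon supply was lower in stage E2 wherever it was called, at 5 of 12 probe sets without EPO and 6 with EPO, beside 10.8% and 12% of all. Mthfd1, the trifunctional cytosolic folate enzyme, was lower at all 3 probe sets, by -2.54, -1.77 and -0.85 without EPO and by -2.84, -1.87 and -1.13 with EPO. At 1415916_a_at it read 2.72, 2.27, 2.49 and 2.65 in E1 no EPO, 3.30, 2.47, 2.59 and 2.80 in E1 EPO, -0.051, -0.068 and 0.087 in E2 no EPO and 0.051, -0.099 and -0.11 in E2 EPO. The stages lay far apart, with adjusted p of 1.53e-06 and 6.07e-07 from limma. The smallest difference, -0.85, was not called without E2 no EPO replicate 2 (0.0543). Mthfd1l, its mitochondrial relative, differed by -1.004 and -1.05 and Prps2 1454843_at by -1.03 and -0.87, all called. Prps1 was not called (-0.13 and -0.30), and Shmt1 1425179_at was called with EPO alone (-2.65, against -1.14 without).

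The promoter windows of Smox (chr2:131491612-131491911, plus strand) and Mthfd1 (chr12:76254982-76255281, plus strand), RefSeq GRCm38.p6, are shown as those of the members with the largest stage difference upwards and downwards. Neither holds CACGTG or TTCNNNGAA, so both are in lower case throughout.
Smox: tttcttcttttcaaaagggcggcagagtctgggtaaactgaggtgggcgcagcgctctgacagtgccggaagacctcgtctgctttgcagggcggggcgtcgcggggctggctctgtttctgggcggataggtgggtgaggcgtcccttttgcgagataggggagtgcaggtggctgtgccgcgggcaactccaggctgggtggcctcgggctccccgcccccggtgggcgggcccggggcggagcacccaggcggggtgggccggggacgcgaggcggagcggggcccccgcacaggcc
Mthfd1: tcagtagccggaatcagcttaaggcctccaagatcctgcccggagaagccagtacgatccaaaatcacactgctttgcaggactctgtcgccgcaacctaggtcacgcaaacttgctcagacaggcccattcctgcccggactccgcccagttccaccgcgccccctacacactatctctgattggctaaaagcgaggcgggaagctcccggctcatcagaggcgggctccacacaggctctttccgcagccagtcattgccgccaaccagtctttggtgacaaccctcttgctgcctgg

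Ribonucleotide reductase and the nucleoside diphosphate kinases moved in opposite directions. Rrm2 was higher in stage E2 at all 3 probe sets, by 1.04 to 1.83 without EPO and 1.16 to 1.73 with EPO. At 1448226_at it read -1.68, -1.61, -1.67 and -1.83 in E1 no EPO, -1.95, -1.43, -1.44 and -1.38 in E1 EPO, -0.096, 0.016 and 0.072 in E2 no EPO and 0.14, 0.20 and 0.21 in E2 EPO. All arrays of stage E2 were above all of stage E1, with differences of 1.70 ± 0.119 (SE) (limma adjusted p = 1.89e-06) and 1.73 (1.44e-06).

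Rrm1 was higher at all 3 probe sets without EPO (0.36, 1.49 and 0.53) and at 2 of 3 with EPO (0.52 and 1.20). The call of Rrm1 1448127_at without EPO was lost in 9 of 14 fits that left out an array, with limma adjusted p up to 0.123. It was also lost in the fit blocked on replicate number (0.0605). That block ties same-numbered arrays across the stages, which did not deviate together (r = -0.126 to 0.0586). Tyms 1438690_at was higher with EPO (1.35, limma adjusted p = 0.00966) and not called without EPO (0.40, 0.346), and Dut was not called. Nme1 was lower by -0.71 and -0.49 without EPO and by -1.02 and -0.44 with EPO, and Nme2 by -1.42 and -1.50. These neighbouring genes, 2668 bases apart on chromosome 11, are alike in sequence, and how far their probe sets pick up the transcript of the other was not tested.

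**Figure D5:**
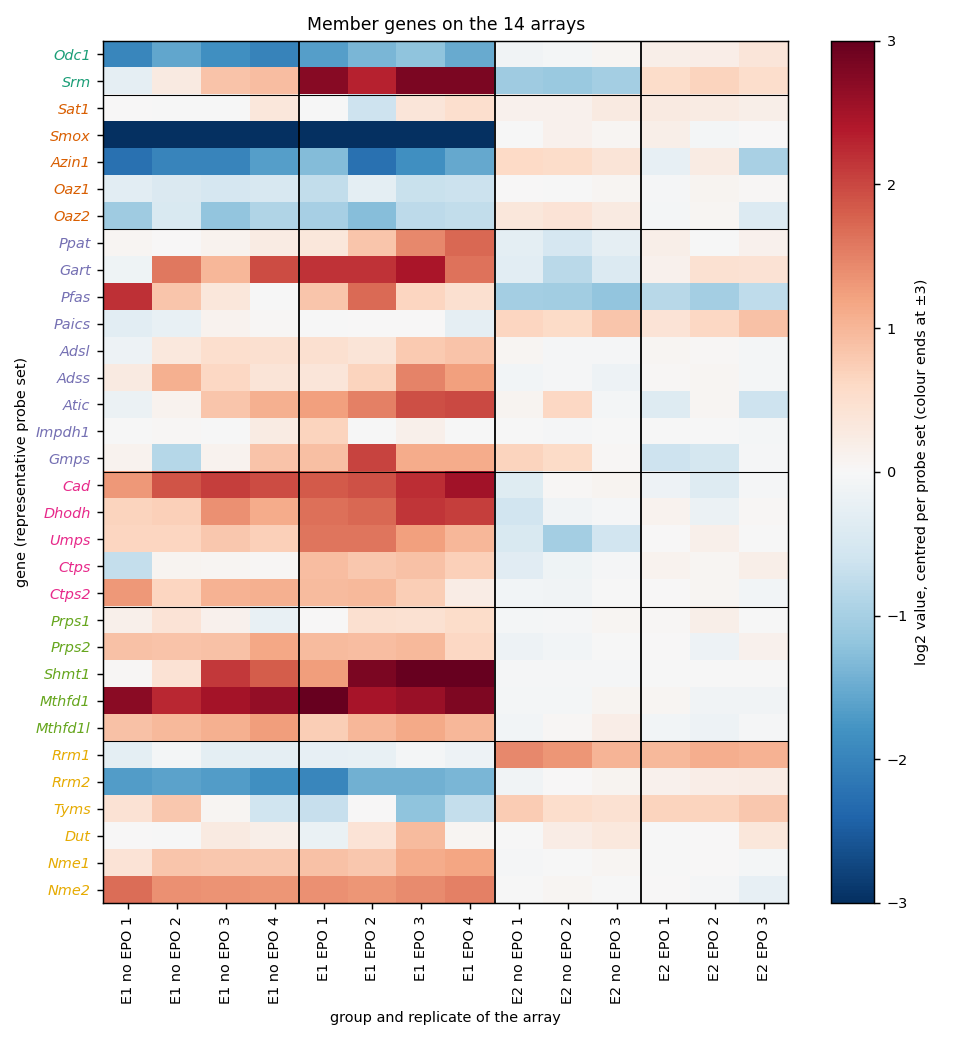
Centred log2 value of the probe set with the largest SD of each of the 32 genes (rows, coloured by role) on each of the 14 arrays (columns, by group and replicate), blue below and red above the subtracted constant, with the colour ending at 3 on either side. The stage boundary after the E1 arrays is the sharpest feature in most rows, and in the Srm row the EPO arrays also stand above the others within each stage.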

How the data were processed

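RNA of 14 samples was measured on Affymetrix mouse arrays. The authors made the deposited log2 values with GC-RMA in GCOS and GeneSpring GX and subtracted a median per probe set. The base of 2 is inferred, and an intensity filter could not be applied to centred values. Of 45101 probe sets, 64 controls were left out, and 34945 name 1 gene in the platform annotation. The members and gene lists were chosen with earlier results of these data known. EPO was tested within each stage, and the interaction and the stages in one fit of the 14 arrays, with limma 3.58.1 in R 4.3.3 and Benjamini-Hochberg adjustment over 45037 probe sets. The scripts were tested on simulated data, where 62% of changes of 1 log2 unit were recovered in stage E1 and 81% in stage E2, with 6.25% and 9.28% of calls false. The changed probe sets were drawn from all 45037, with independent normal noise. Members vary more: their median SD was 0.204 in E1 no EPO and 0.245 in E1 EPO, beside 0.0934 and 0.0729 over all. In E2 no EPO and E2 EPO it was 0.0913 and 0.0934, beside 0.0317 and 0.0343. A fit of all 14 arrays uses 1 spread per probe set for both stages, although by these medians that of stage E1 was the larger. Where the spreads differ so, its errors are too small for EPO changes in stage E1 and too large for those in stage E2. Recovery at the SD of the members was not tested. Where 1 value stands for a gene, it is the probe set with the largest SD. All members are named, and of the other genes of the pathway at most 4 per list, those called with EPO at the smallest adjusted p. Members shown per array for their stage difference were chosen after their values were seen. Same-numbered arrays of stage E1 deviated together (r = 0.152 to 0.195, though E1 no EPO 4 and E1 EPO 3 gave 0.203), which met the rule for pairs, and those of stage E2 did not (-0.0609 to -0.0155). All main values come from fits without the block, which is an alternative. Precision is limited by the number of arrays. The alternatives were quantile normalization, centring, a trend and robust fit, array weights, the larger-SD probe sets, gene means, the replicate block, one fit, only the 2 groups compared, the methods' t-test and leaving out each array.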

Additional observations from a re-analysis of the deposited data

Results flagged for a closer look

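Among 146 tests of the E1 groups for an array far from the other 3, 22 stood apart, where 7.3 would by chance at 1 in 20. The probe sets of a gene and the arrays of a group are not independent of each other.

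In E1 no EPO, replicate 1 stood apart in 5 probe sets, with values of -0.71 for Ctps, 0.0545 for Ctps2 1435759_at, 0.0661 for Tyms 1427811_at, 0.41 for Nme1 1424110_a_at and 1.67 for Nme2. Of these, Ctps2 1435759_at and Tyms 1427811_at are flat probe sets, with an SD of 0.022 and 0.041 over the 14 arrays, so the array lay only slightly apart there. Replicate 2 stood apart at Oaz2 1442541_at (0.56), Prps2 1420637_at (0.17) and Rrm1 1440073_at (-0.067). Replicate 3 did so at Dhodh 1417581_at (1.44) and Rrm1 1415878_at (0.13). Replicate 4 did so at Sat1 (0.35), Impdh1 (0.24), Cad 1440857_at (0.40), Prps2 1420638_at (0.16) and Prps2 1454843_at (1.16).

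In E1 EPO, replicate 1 stood apart at Ctps2 1457075_at (0.55), Prps1 (0.0072), Rrm2 1448226_at (-1.95) and the flat probe set Tyms 1427811_at (0.029). Replicate 2 did so at Srm (2.30), where the other 3 lay between 2.74 and 2.82, and replicate 4 at Paics 1436298_x_at (-0.26) and Prps2 1454843_at (0.61).

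EPO arrays lay above all others in stage E1 and below all others in stage E2 for Atic 1428506_at, with changes of 0.83 and -0.33 and a difference of -1.16, and for Gmps 1455057_at, with changes of 1.23 and -0.82 and a difference of -2.05. The limma interaction did not pass for either (adjusted p = 0.259 and 0.202), but passed for Atic 1428506_at with array weights (0.0481) and for Gmps 1455057_at after quantile normalization (0.0356).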

How the results depend on the processing

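Of the results followed through the alternatives, none turned direction. They were 13 probe sets with EPO in stage E1, 2 in stage E2, and the 40 stage calls without EPO and 50 with EPO. The other named differences are not among them, and of these the Srm interaction turned after quantile normalization, as given in the report. With EPO in stage E1, where 1 member probe set was called higher, the count was 7 with array weights, 3 with the larger-SD probe sets, 3 over gene means, 5 in one fit of all arrays and 18 by the methods' t-test without adjustment. Of those called lower, where the count was 0, there was 1 with array weights and 3 by that t-test. That t-test took the tail on the side to which each probe set moved, which lets more pass than a two-sided test. The shares of all probe sets called under these alternatives are not given here, so these counts cannot be judged against them. The replicate block, which pairs arrays by number, gave 0 higher in stage E1. It gave a smaller change in stage E2 for 1 probe set, Atic 1452811_at (-1.75, limma adjusted p = 0.0307), though numbers do not pair the arrays of stage E2. Leaving out each array in turn gave 0 to 2 higher in stage E1 and 1 to 2 in stage E2.

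In stage E2, where 2 were higher, there was 1 with quantile normalization and 1 in one fit, 5 with the larger-SD probe sets, 4 over gene means and 17 by the unadjusted t-test, which also gave 5 lower. In stage E2 the block gave 2 higher, with Odc1 1438761_a_at in place of Ppat, though numbers do not pair arrays there. The interaction, called for 0, was larger in stage E2 for 1 and smaller for 1 with quantile normalization, and larger for 1 and smaller for 3 with array weights. Counted over gene means, 8 genes were higher and 13 lower between stages without EPO, and 9 and 19 with EPO. Leaving out arrays gave 17 to 19 higher and 18 to 23 lower without EPO, and 19 to 20 and 26 to 34 with EPO. A fit of only the 2 groups compared ended 5 of 40 stage calls without EPO, at Pfas, Gart 1424436_at, Cad 1452829_at and 2 of Paics (adjusted p = 0.0552 to 0.0942), and 3 of 50 with EPO, at Adss and 2 of Ppat (0.0518 to 0.0997). For these counts too, the shares of all probe sets under the same alternatives are not given here. Why the counts move was not tested.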

Other observations

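Probe sets whose annotation names a member together with a pseudogene or relative were kept out of the counts. None was called with EPO by limma. Of 3 for Sms, the spermine synthase, which no probe set names alone, 2 were lower in stage E2, at -0.74 (1421052_a_at, limma adjusted p = 0.0172) and -0.86 (1434190_at, 0.0112) without EPO and -0.88 (0.00555) and -1.17 (0.00152) with EPO. The third differed by -0.90 and -0.17 and was not called. Tyms 1424991_s_at was higher in stage E2 by 0.92 in both comparisons (limma adjusted p = 7.18e-05 and 6.59e-05).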
